A study of Macaca mulatta with 81 samples.

Results

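Myoglobin (MB), tumor protein p63 (TP63), trichohyalin (TCHH) and the B1 bradykinin receptor (BDKRB1) were followed in circulating T cells of rhesus macaques after hematopoietic cell transplant. The probe sets taken were those that the array's gene table gives to exactly 1 of these 4 symbols, 10 of the 52865 on the array: 1 for MB, 6 for TP63, 1 for TCHH and 2 for BDKRB1. The 4 genes, of 14132 with a probe set of their own, were chosen by their measured signal, which was higher in autologous recipients at day 14 than in recipients on prophylaxis at day 14, so the values of those groups are given as a description with no test. Tests were run only on later arrays and on groups that the choice did not use. The later arrays of the autologous, Tac.Mtx, Bela.Siro, FR104 and FR104.Siro groups came from the same animals as the day 14 arrays.

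T cells were sorted by CD3 from blood and 81 arrays were made from 50 animals. Auto.D14 and Auto.D36 held 3 arrays each, from 3 recipients of an autologous transplant without prophylaxis at day 14 and day 36. NoRx.F held 4 recipients of an allogeneic transplant without prophylaxis. The other allogeneic groups were named for their prophylaxis: Siro.F with 4 arrays, Tac.Mtx.D14, Tac.Mtx.D30 and Tac.Mtx.F with 3, 2 and 3, Bela.F with 3, Bela.Siro.D14, Bela.Siro.D30 and Bela.Siro.F with 3, 3 and 2, FR104.D14 and FR104.F with 3 each, and FR104.Siro.D14 and FR104.Siro.F with 4 each. The labels spell out neither the prophylaxis names nor the day of an F array, and give no age. The FR104.Siro.D14 arrays were taken at days 14, 14, 22 and 34, and 1 Bela.Siro.D30 array at day 29. Healthy.Control held 34 arrays of animals without a transplant, among them 11 of animals that also gave transplant arrays: the 3 autologous recipients, 3 of Siro.F and 1 each of NoRx.F, Bela.F, Bela.Siro, FR104 and FR104.Siro. All Auto and FR104 arrays lay in batch 4 and all Tac.Mtx and Bela arrays in batch 3, while NoRx.F and Siro.F lay in batches 1 and 2. In sorted bulk RNA, fewer cells of a type and less RNA per cell cannot be told apart.

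None of the 4 genes is a classical T cell gene. Myoglobin is the heme protein that stores oxygen in heart and skeletal muscle. p63 is a transcription factor of the p53 family that maintains the basal cells of stratified epithelia. Trichohyalin is a structural protein of the hair follicle's inner root sheath that transglutaminases and peptidylarginine deiminases modify. The B1 receptor is a G protein coupled receptor for kinins from which a carboxypeptidase has removed the last arginine, and unlike the B2 receptor it is low in most healthy tissue and induced by inflammation or injury. These roles are known mainly from human and mouse. In the RefSeq annotation of the macaque assembly T2T-MMU8v2.0, MB lies on chromosome 10 beside APOL6 and RASD2, TP63 on chromosome 2 between P3H2 and TPRG1, TCHH on chromosome 1 between RPTN and TCHHL1, and BDKRB1 on chromosome 7 between BDKRB2 and ATG2B.

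The 4 genes were described on the log2 signal scale, on which a difference of 1 is a 2-fold difference in signal, and levels were compared only within a probe set. Where a gene had several probe sets, the one with the highest mean stood for it. Of the 10 probe sets, 5 passed the filter on low signal, which asked for more than 4.65 in at least 2 arrays, and each gene had at least 1 of them. MB and BDKRB1 passed it in all 81 arrays and TP63 in 80, but TCHH in only 22.

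At day 14, the values that chose the genes, MB read 8.21, 9.23 and 9.31 in Auto.D14, against 5.53, 5.92 and 6.06 in Tac.Mtx.D14, 5.69, 5.70 and 6.57 in Bela.Siro.D14, 5.44, 5.51, 6.11 and 6.32 in FR104.Siro.D14, and 6.17, 7.77 and 8.64 in FR104.D14. The autologous arrays lay above every array of the first 3 of those groups but overlapped with FR104.D14. TP63 read 7.10, 8.07 and 8.33 in Auto.D14 and 6.41, 6.89 and 8.64 in Tac.Mtx.D14, which overlap. The other TP63 arrays at that time lay lower, at 5.17 to 5.49 in Bela.Siro.D14, 5.32 to 6.67 in FR104.D14 and 4.53 to 5.06 in FR104.Siro.D14. TCHH read 5.29, 5.37 and 6.02 in Auto.D14, above all 13 prophylaxed arrays, whose highest was 4.97 in Tac.Mtx.D14. BDKRB1 read 10.32, 11.50 and 11.62 in Auto.D14, also above all 13, whose highest was 10.002 in Bela.Siro.D14.

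The healthy controls showed that these day 14 gaps differed in kind between the genes. The Auto.D14 mean stood above the Healthy.Control mean by 3.06 for MB, 2.00 for TP63 and 1.31 for TCHH, and all 3 Auto.D14 arrays lay above the highest of the 34 healthy arrays in each. For BDKRB1 the Auto.D14 mean was 0.59 above the healthy mean, with all 3 arrays inside the healthy range of 9.70 to 11.65. The prophylaxed day 14 means lay below the healthy mean. All 3 Tac.Mtx.D14 arrays lay below the healthy minimum. So did 2 of 3 arrays in Bela.Siro.D14, 2 of 3 in FR104.D14 and 3 of 4 in FR104.Siro.D14. The values of BDKRB1 thus go against the working name of an autologous rise, since its Auto.D14 arrays did not leave the healthy range. For TP63 the Tac.Mtx arrays reached the same levels as the autologous ones. The spike-in signal of Auto.D14 animal 202 was 12.58, 1 of 8 arrays above the healthy maximum of 11.82. Without that array the differences from Healthy.Control were 2.86 for MB and 1.08 for TCHH.

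**Figure D1:**
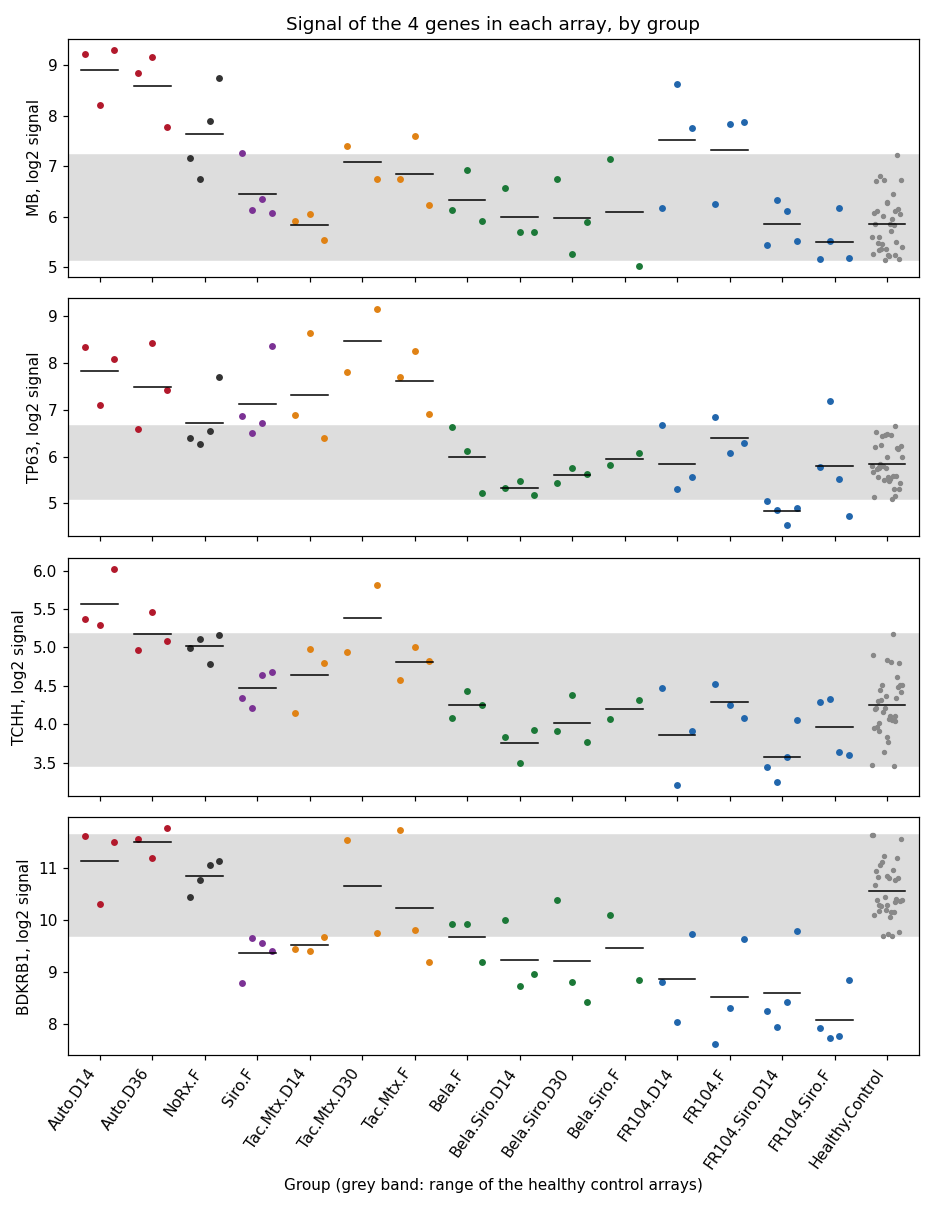
Log2 signal (vertical axes) of the probe set that stands for each gene, 1 point per array in the 16 groups (horizontal axis); black bars are group means and the grey band is the range of the 34 Healthy.Control arrays. MB lies above the band in all 6 autologous arrays, TP63 in most autologous and Tac.Mtx arrays, and BDKRB1 falls below it in all Siro.F, FR104.F and FR104.Siro.F arrays.

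The same 3 animals at day 36 and the allogeneic groups not used in the choice were then tested. The moderated linear model of limma was fitted over all 11806 genes tested, with group and batch as terms, and a gene was called where its p, adjusted by the Benjamini-Hochberg method over all genes of that comparison, lay under 0.05. In Auto.D36 minus Healthy.Control 3 of the 4 genes were called, where 16.7% of all genes were called. In NoRx.F minus Healthy.Control 3 were called (35.4% of all genes), in Siro.F 2 (14.6%), in Tac.Mtx.D30 2 (3.46%), in FR104.F 2 (10.7%), in Tac.Mtx.F 1 (14.1%), in Bela.Siro.D30 1 (7.17%) and in FR104.Siro.F 1 (10.1%). In Bela.F (17.6%) and Bela.Siro.F (2.84%) limma called none, with 1 gene at an unadjusted p under 0.05 in each. The comparisons share the 34 healthy arrays and are not independent of each other.

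Between transplant groups, all 4 genes were called in Auto.D36 minus FR104.Siro.F, where 13.9% of all genes were called, and all 4 in Auto.D36 minus Bela.Siro.D30 (9.44%), whose groups share no batch. In Auto.D36 minus FR104.F 1 was called (3.15%), with all 4 at an unadjusted p under 0.05. In Auto.D36 minus Tac.Mtx.D30 limma called none of the 4, with 1 at an unadjusted p under 0.05, and 0.0593% of all genes. The animals of all these groups also gave the day 14 arrays that chose the genes, so these counts are not independent of that choice. Against NoRx.F, FR104.Siro.F had 3 called (19.6%), FR104.F 1 (7.67%) and Siro.F 1 (12.1%). None was called for Tac.Mtx.F (6.95%), Bela.F (1.86%) or Bela.Siro.F (7.75%), with 0, 3 and 3 at an unadjusted p under 0.05 by limma. None was called in NoRx.F minus Auto.D36 (8.39%), with 0 at an unadjusted p under 0.05.

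**Figure D2:**
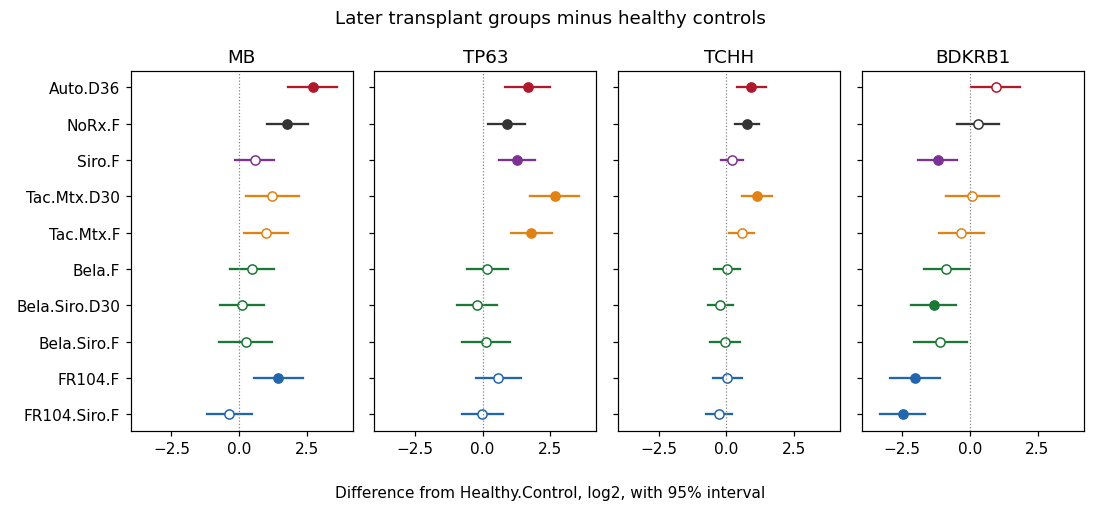
Difference of each later transplant group (rows) from Healthy.Control on the log2 scale (horizontal axes), 1 panel per gene; lines are 95% intervals from the fit and filled points passed an adjusted p of 0.05. MB, TP63 and TCHH differences are mostly at or above 0, while BDKRB1 differences are mostly below it.

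MB was higher in autologous recipients at day 36 than in healthy animals. It read 7.78, 8.85 and 9.17 in Auto.D36, against a lowest of 5.14, a median of 5.84 and a highest of 7.23 in Healthy.Control. All 3 autologous arrays lay above all 34 healthy ones. The fitted difference was 2.73 ± 0.45 (SE; 6.63-fold; 95% interval 1.82 to 3.64; adjusted p = 1.99e-05). Against their own healthy array, animals 200, 201 and 202 stood 2.79, 2.44 and 2.38 higher at day 36.

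MB was also higher without prophylaxis after an allogeneic transplant. NoRx.F arrays read 6.75, 7.17, 7.90 and 8.75, of which 2 lay above the healthy maximum, and the difference from Healthy.Control was 1.78 ± 0.38 (adjusted p = 0.000111). It was 1.11 within batch 1 and 3.03 within batch 2, which holds 1 NoRx.F array. FR104.F read 6.25, 7.84 and 7.88, with 2 of 3 arrays above the healthy maximum and a difference of 1.45 ± 0.45 (adjusted p = 0.027). This call ended without animal 23 (1.19, adjusted p = 0.178) or animal 24 (1.18, adjusted p = 0.158).

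In the other groups MB was not called against Healthy.Control, except in Tac.Mtx.F when only those groups were in the fit (adjusted p = 0.0429). The differences were 1.23 in Tac.Mtx.D30 (95% interval 0.25 to 2.20), 1.00 in Tac.Mtx.F (0.18 to 1.82), 0.58 in Siro.F, 0.48 in Bela.F, 0.24 in Bela.Siro.F, 0.12 in Bela.Siro.D30 and -0.37 in FR104.Siro.F, with adjusted p values of 0.0905 to 0.91. The intervals of the Tac.Mtx groups reach past a 2-fold difference in signal. So do those of Siro.F (-0.14 to 1.31), Bela.F (-0.34 to 1.30), Bela.Siro.F (-0.73 to 1.21) and FR104.Siro.F (-1.19 to 0.46). The data thus do not show that MB was at its healthy level in any of these groups.

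The order of the group means of MB ran from Auto.D14 (8.92 ± 0.61, SD) and Auto.D36 (8.60 ± 0.73) through NoRx.F (7.64 ± 0.88), FR104.D14 (7.53 ± 1.25), FR104.F (7.32 ± 0.93), Tac.Mtx.D30 (7.08 ± 0.47) and Tac.Mtx.F (6.85 ± 0.69). Below these came Siro.F (6.45 ± 0.55), Bela.F (6.33 ± 0.54), Bela.Siro.F (6.09 ± 1.50), Bela.Siro.D14 (5.99 ± 0.50), Bela.Siro.D30 (5.97 ± 0.75), Healthy.Control (5.86 ± 0.55), FR104.Siro.D14 (5.85 ± 0.44), Tac.Mtx.D14 (5.83 ± 0.27) and FR104.Siro.F (5.50 ± 0.48). Every group in that order overlapped in range with the next one.

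Among transplant groups, MB separated autologous recipients from FR104.Siro.F but not clearly from FR104.F. Auto.D36 stood 3.10 ± 0.49 above FR104.Siro.F, which read 5.15, 5.17, 5.51 and 6.18 (adjusted p = 8.65e-06, no overlap). It stood 1.28 ± 0.52 above FR104.F (95% interval 0.23 to 2.32; adjusted p = 0.181), with arrays that overlap. FR104.Siro.F was 2.14 lower than NoRx.F (-2.14 ± 0.56, adjusted p = 0.00378). NoRx.F minus Auto.D36 was -0.95 ± 0.59 (adjusted p = 0.344, 95% interval -2.13 to 0.23).

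Genes of muscle, of oxygen sensing and of red cells were set beside MB. Of 24 striated muscle genes listed, 11 were tested and none was called in Auto.D36 minus Healthy.Control, with 1 at an unadjusted p under 0.05 by limma, and their median difference was -0.005, that of all genes -0.013. In NoRx.F minus Healthy.Control the muscle creatine kinase CKM (0.30 ± 0.10) and the cardiac actin ACTC1 (0.29 ± 0.10) were called, with adjusted p values of 0.0103 and 0.0176. The mean level of the muscle marker list in Auto.D36 differed from the healthy mean by -0.16 to 0.05. Of 7 hypoxia response genes tested, none was called in Auto.D36 (0 at an unadjusted p under 0.05 by limma). In NoRx.F, where 35.4% of all genes were called, 4 were called, 2 higher and 2 lower. Among them were CA9, a carbonic anhydrase, at 1.24 ± 0.15, and KDM3A, a histone demethylase, at -0.89 ± 0.10.

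Hemoglobin genes had large but variable differences. The 6 other globins tested had a median difference of 0.91 in Auto.D36 minus Healthy.Control (all genes -0.01) and none was called, with 2 at an unadjusted p under 0.05 by limma: HBA, alpha globin, differed by 2.38 ± 1.08 (adjusted p = 0.127). In FR104.F, where MB was called, their median was 1.03 (all genes -0.026) and 1 was called, the fetal gamma globin HBG2 at 3.46 (adjusted p = 0.0354). In Tac.Mtx.F their median was 1.07 (all genes 0.033) with none called and 2 at an unadjusted p under 0.05 by limma. The erythroid marker list, 4 of 7 genes measured, stood 0.37 to 0.70 above the healthy mean in Auto.D36 arrays, against a range of -0.66 to 1.42 in healthy arrays, and 0 of its 4 genes were called. It averaged 1.02 above the healthy mean in FR104.F (-0.31 to 2.49 over arrays, 0 called) and 1.10 in Tac.Mtx.F (0.095 to 2.304, 1 called higher). Its part in the MB differences was not tested.

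TP63 was higher in autologous recipients at day 36, and as high or higher in the Tac.Mtx groups. It read 6.59, 7.43 and 8.42 in Auto.D36, against a lowest of 5.10, a median of 5.77 and a highest of 6.65 in Healthy.Control, so that 2 of 3 arrays lay above all healthy ones. The difference was 1.66 ± 0.41 (3.16-fold; 95% interval 0.83 to 2.49; adjusted p = 0.00303), and 1.19 (adjusted p = 0.0958) without animal 201. Against their own healthy array, animals 200, 201 and 202 stood 1.16, 2.19 and 1.44 higher.

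The Tac.Mtx groups held the highest TP63 mean of all 16 groups. Tac.Mtx.D30 read 7.80 and 9.15, both above the healthy maximum, and differed from Healthy.Control by 2.66 ± 0.45 (adjusted p = 0.000249). Without animal 20 its 1 remaining array gave 1.99 (adjusted p = 0.105). Tac.Mtx.F read 6.91, 7.70 and 8.24, all 3 above the healthy maximum, with a difference of 1.80 ± 0.38 (adjusted p = 0.000853). Animal 20 was the highest of its group at each Tac.Mtx time, at 8.64, 9.15 and 8.24. Auto.D36 minus Tac.Mtx.D30 was -0.999 ± 0.61 (95% interval -2.21 to 0.22; adjusted p = 0.62), between groups in different batches.

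TP63 was called higher in Siro.F and NoRx.F as well, but neither call held with each array left out in turn. Siro.F read 6.51, 6.72, 6.87 and 8.35, with a difference from Healthy.Control of 1.27 ± 0.33 (adjusted p = 0.00503), and 0.80 (adjusted p = 0.183) without animal 18. It was 0.40 (adjusted p = 0.344) within batch 1 and 1.94 (adjusted p = 0.00357) within batch 2. NoRx.F read 6.27, 6.40, 6.55 and 7.70, with a difference of 0.89 ± 0.35 (adjusted p = 0.0386), and 0.43 (adjusted p = 0.456) without animal 53 and 0.94 (adjusted p = 0.0545) without animal 52. It was 0.19 (adjusted p = 0.466) within batch 1 and 2.02 (adjusted p = 0.0221) within batch 2.

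In the Bela, Bela.Siro, FR104 and FR104.Siro groups after day 14, TP63 was not called. The differences from Healthy.Control were 0.58 in FR104.F (95% interval -0.25 to 1.40), 0.18 in Bela.F, 0.14 in Bela.Siro.F, -0.01 in FR104.Siro.F and -0.21 in Bela.Siro.D30. FR104.Siro.D14 stood apart on the low side, with all 4 arrays between 4.53 and 5.06 and the healthy minimum at 5.10. The spike-in signal of these 4 arrays, 11.97 to 12.74, was above the healthy maximum too, and its part in the TP63 values was not tested. In FR104.Siro.F the 4 arrays spread from 4.74 to 7.20.

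The order of TP63 means was Tac.Mtx.D30 (8.47 ± 0.95, SD), Auto.D14 (7.83 ± 0.65), Tac.Mtx.F (7.62 ± 0.67), Auto.D36 (7.48 ± 0.92), Tac.Mtx.D14 (7.31 ± 1.18), Siro.F (7.12 ± 0.84), NoRx.F (6.73 ± 0.66) and FR104.F (6.40 ± 0.40). Bela.F (5.99 ± 0.72), Bela.Siro.F (5.95 ± 0.17), FR104.D14 (5.85 ± 0.72), Healthy.Control (5.83 ± 0.44), FR104.Siro.F (5.81 ± 1.03), Bela.Siro.D30 (5.61 ± 0.16), Bela.Siro.D14 (5.33 ± 0.16) and FR104.Siro.D14 (4.84 ± 0.22) followed. Neighbours overlapped in range except at the bottom, where Bela.Siro.D14 lay above FR104.Siro.D14.

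Auto.D36 exceeded FR104.Siro.F in TP63 by 1.67 ± 0.45 (adjusted p = 0.0065), a call that ended without Auto.D36 animal 201 (1.20, adjusted p = 0.116), without FR104.Siro.F animal 29 (1.31, adjusted p = 0.0591) or with only these groups in the fit (adjusted p = 0.0952). Auto.D36 minus FR104.F was 1.08 ± 0.48 (95% interval 0.13 to 2.04; adjusted p = 0.225). No allogeneic prophylaxis group differed from NoRx.F in TP63 by the test, with differences of 0.91 for Tac.Mtx.F, 0.38 for Siro.F, -0.31 for FR104.F, -0.71 for Bela.F, -0.75 for Bela.Siro.F and -0.90 for FR104.Siro.F.

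The 6 TP63 probe sets did not move alike. The TP63 probe set numbered 33360 passed the filter on low signal in 0 of 81 arrays, and 763 also in 0, so their values describe signal below that level and are no support for the main one, numbered 33493. Pearson's r with the main one over the 81 arrays was 0.70 for 33360 and between -0.10 and 0.13 for the other 4. Probe set 33360 read 3.14, 3.51 and 4.06 in Auto.D36, all above the healthy range of 2.16 to 2.95. In a fit on every probe set it was called in Auto.D36 minus Healthy.Control (0.94 ± 0.17, adjusted p = 7.19e-05; 14.6% of probe sets called), minus FR104.F (0.78, adjusted p = 0.0174), minus FR104.Siro.F (0.81, adjusted p = 0.00163) and minus Bela.Siro.D30 (0.87, adjusted p = 0.00832). It was also called in Tac.Mtx.F minus Healthy.Control (0.51, adjusted p = 0.0244) and NoRx.F minus Auto.D36 (-0.74, adjusted p = 0.0329). Probe set 763 was called in Siro.F minus Healthy.Control (0.37, adjusted p = 0.0125). No other TP63 probe set was called in any of the 21 comparisons, apart from the main one. Which p63 transcripts these probe sets read was not analysed here.

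**Figure D3:**
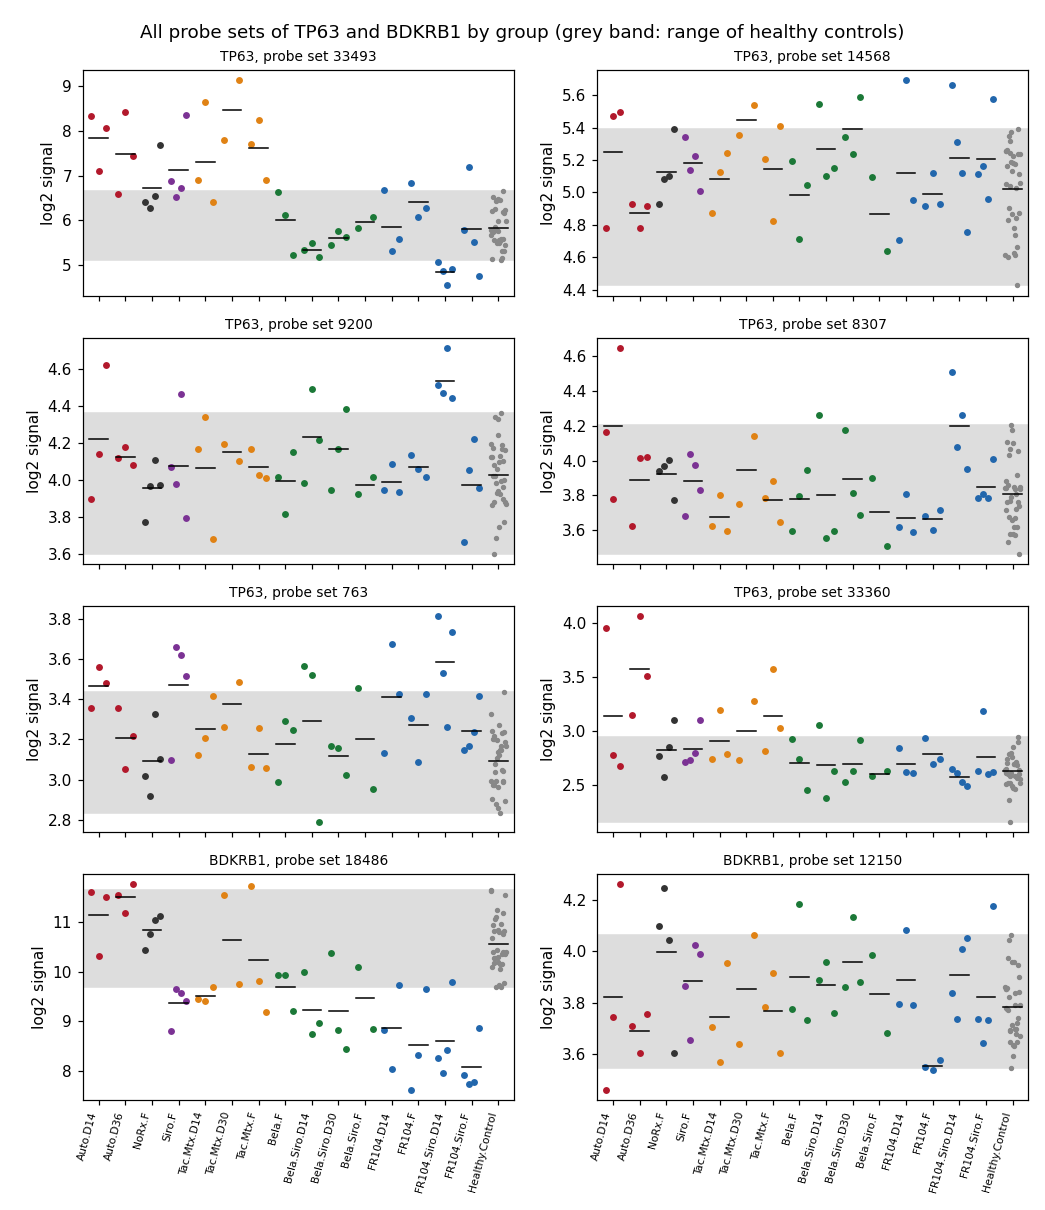
Log2 signal (vertical axes) of the 6 TP63 and 2 BDKRB1 probe sets, 1 point per array by group; black bars are group means and the grey band is the healthy range. TP63 probe sets 33360 and 33493 both stand above the band in most autologous arrays, and BDKRB1 probe set 12150 stays near 3.8 in all groups while 18486 lies below the band in many.

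Genes of the p53 and p63 programmes were counted beside TP63. Of 20 p53 family members and targets tested, 6 were called higher and 3 lower in Auto.D36 minus Healthy.Control, where 16.7% of all genes were called. In NoRx.F 3 were called higher and 3 lower, where 35.4% of all genes were called. The median differences of the 20 were 0.16 and 0.18, those of all genes -0.01 and 0.05. TIGAR, a regulator of glycolysis, rose by 0.85 ± 0.28 in Auto.D36 and 1.00 ± 0.24 in NoRx.F. BAX, a pro-apoptotic BCL2 family member, rose by 0.56 ± 0.19 and 0.98 ± 0.16. SESN1, a stress-induced sestrin, was lower, at -1.49 ± 0.32 in Auto.D36 and -2.29 ± 0.26 in NoRx.F. Adjusted p for these was at most 0.029.

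Of 9 basal keratinocyte and p63 programme genes tested, none was called higher in Auto.D36 and 1 lower, where 16.7% of all genes were called. The lower one was the laminin receptor subunit ITGA6, at -0.98 ± 0.32 (adjusted p = 0.0239). In NoRx.F ITGA6 was also lower (-1.10 ± 0.27, adjusted p = 0.000651) and the epithelial transcription factor GRHL3 was higher (0.33 ± 0.11, adjusted p = 0.0164). Of the keratinocyte markers, 3 of 6 have a probe set with 1 gene here, KRT1, KRT10 and DSG3. DSG3 did not pass the filter, and of the 2 tested none was called higher and 1 lower in Auto.D36. The mean level of the 3 genes differed from the healthy mean by -0.34 to -0.15 in the 3 arrays, and its part in the TP63 values was not tested.

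Against a Healthy.Control mean of 4.25, itself below the low-signal filter of 4.65, TCHH was higher in both groups transplanted without prophylaxis and in Tac.Mtx.D30. It read 4.97, 5.08 and 5.46 in Auto.D36, against a lowest of 3.45, a median of 4.21 and a highest of 5.17 in Healthy.Control, with 1 of 3 arrays above all healthy ones. The difference was 0.93 ± 0.26 (1.90-fold; 95% interval 0.40 to 1.45; adjusted p = 0.00881), and 0.79 (adjusted p = 0.087) without animal 201. NoRx.F read 4.78, 4.99, 5.10 and 5.17, all within the healthy range, with a difference of 0.77 ± 0.22 (adjusted p = 0.00372). Tac.Mtx.D30 read 4.95 and 5.81, with a difference of 1.14 ± 0.28 (adjusted p = 0.0133) that was not called without either array.

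TCHH in the remaining groups was not called against Healthy.Control. The differences were 0.57 in Tac.Mtx.F (95% interval 0.09 to 1.04; adjusted p = 0.0988), 0.22 in Siro.F, 0.04 in FR104.F, 0.02 in Bela.F, -0.05 in Bela.Siro.F, -0.22 in Bela.Siro.D30 and -0.28 in FR104.Siro.F. The animals' own healthy arrays gave a rise of 0.46, 1.04 and 0.58 in Auto.D36 for animals 200, 201 and 202.

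The order of TCHH means was Auto.D14 (5.56 ± 0.40, SD), Tac.Mtx.D30 (5.38 ± 0.61), Auto.D36 (5.17 ± 0.25), NoRx.F (5.01 ± 0.17), Tac.Mtx.F (4.80 ± 0.21), Tac.Mtx.D14 (4.64 ± 0.43), Siro.F (4.47 ± 0.23) and FR104.F (4.29 ± 0.22). Bela.F (4.26 ± 0.18), Healthy.Control (4.25 ± 0.40), Bela.Siro.F (4.19 ± 0.18), Bela.Siro.D30 (4.02 ± 0.32), FR104.Siro.F (3.96 ± 0.40), FR104.D14 (3.86 ± 0.63), Bela.Siro.D14 (3.75 ± 0.23) and FR104.Siro.D14 (3.58 ± 0.34) followed, each overlapping in range with the next.

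Auto.D36 stood 1.21 ± 0.28 above FR104.Siro.F in TCHH (adjusted p = 0.00175), whose arrays read 3.60, 3.64, 4.29 and 4.33, with no overlap. It stood 0.88 ± 0.30 above FR104.F (95% interval 0.28 to 1.49), which missed the threshold (adjusted p = 0.0896) although the arrays did not overlap. FR104.Siro.F was lower than NoRx.F by -1.05 ± 0.32 (adjusted p = 0.0153), and by -0.92 (adjusted p = 0.0507) without FR104.Siro.F animal 29. Of 8 hair follicle and cornified layer genes tested, none was called in Auto.D36 or NoRx.F minus Healthy.Control, with 0 and 1 at an unadjusted p under 0.05 by limma; their median differences were -0.0095 and 0.03.

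BDKRB1 showed the reverse picture, with few values above healthy animals and many below. It read 11.19, 11.56 and 11.77 in Auto.D36, against a lowest of 9.70, a median of 10.40 and a highest of 11.65 in Healthy.Control. The difference, 0.95 ± 0.46 (95% interval 0.04 to 1.86), was not called (adjusted p = 0.155). Animals 200 and 202 stood 1.19 and 1.37 above their own healthy array, while animal 201 stood 0.37 below its own, which was among the highest healthy values at 11.56. NoRx.F read 10.44, 10.77, 11.06 and 11.13, within the healthy range, with a difference of 0.30 ± 0.38 (adjusted p = 0.59).

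BDKRB1 was lower than in healthy animals under FR104 and under Siro. FR104.Siro.F read 7.74, 7.78, 7.92 and 8.86, all 4 below the healthy minimum, and the fitted difference was -2.48 ± 0.42 (95% interval -3.31 to -1.65; adjusted p = 4e-05). FR104.F read 7.62, 8.32 and 9.64, also all below it, with -2.03 ± 0.46 (adjusted p = 0.00176), and -1.58 (adjusted p = 0.0822) without animal 22. Siro.F read 8.80, 9.42, 9.57 and 9.66, again all below the healthy minimum, with -1.20 ± 0.37 (adjusted p = 0.0174). Within batch 1 the Siro.F difference was -0.87 (adjusted p = 0.0827) and within batch 2 -1.49 (adjusted p = 0.0579), and it was not called without animal 13 (-0.98) or animal 18 (-1.21).

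Of the later Bela, Bela.Siro and Tac.Mtx groups, only Bela.Siro.D30 had a lower mean than Siro.F, at 9.22 against 9.36. Bela.Siro.D30 read 8.43, 8.82 and 10.39, with a difference from Healthy.Control of -1.35 ± 0.41 (adjusted p = 0.0329), lost without animal 42 (-1.15) or animal 49 (-0.96). Bela.Siro.F (-1.09, adjusted p = 0.241) and Bela.F (-0.88, adjusted p = 0.144) were not called, though their 95% intervals, -2.07 to -0.12 and -1.70 to -0.05, leave out 0. Tac.Mtx.F read 9.19, 9.81 and 11.73, across the whole healthy range, with -0.32 ± 0.41 (adjusted p = 0.684), and Tac.Mtx.D30 read 9.76 and 11.55, with 0.09 ± 0.49 (adjusted p = 0.957).

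The order of BDKRB1 means was Auto.D36 (11.51 ± 0.29, SD), Auto.D14 (11.15 ± 0.72), NoRx.F (10.85 ± 0.31), Tac.Mtx.D30 (10.65 ± 1.26), Healthy.Control (10.56 ± 0.54), Tac.Mtx.F (10.24 ± 1.32), Bela.F (9.69 ± 0.42) and Tac.Mtx.D14 (9.52 ± 0.15). Bela.Siro.F (9.47 ± 0.88), Siro.F (9.36 ± 0.39), Bela.Siro.D14 (9.24 ± 0.67), Bela.Siro.D30 (9.22 ± 1.04), FR104.D14 (8.86 ± 0.85), FR104.Siro.D14 (8.61 ± 0.81), FR104.F (8.53 ± 1.03) and FR104.Siro.F (8.07 ± 0.53) followed, each overlapping in range with the next. All 8 means below Tac.Mtx.D14 belonged to recipients given Siro, Bela.Siro, FR104 or FR104.Siro.

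The widest BDKRB1 differences lay between recipients without prophylaxis and those given FR104. Auto.D36 exceeded FR104.Siro.F by 3.43 ± 0.49 (10.8-fold; adjusted p = 1.15e-06) and FR104.F by 2.98 ± 0.53 (7.90-fold; adjusted p = 0.000704), all 3 groups in batch 4 and with no overlap. Against NoRx.F, FR104.Siro.F was lower by -2.78 ± 0.56 (adjusted p = 0.000192), FR104.F by -2.33 ± 0.59 (adjusted p = 0.0091) and Siro.F by -1.50 ± 0.46 (adjusted p = 0.0223). FR104.F minus NoRx.F became -1.88 (adjusted p = 0.0575) without FR104.F animal 22, and Siro.F minus NoRx.F was not called without NoRx.F animal 52 or 53 or Siro.F animal 13. The FR104 and NoRx.F groups shared no batch.

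Auto.D36 also exceeded Bela.Siro.D30 in all 4 genes, by 2.61 in MB (adjusted p = 0.00371), 1.87 in TP63 (adjusted p = 0.0237), 1.14 in TCHH (adjusted p = 0.0285) and 2.29 in BDKRB1 (adjusted p = 0.0106). These groups lay in different batches, 4 and 3, which the fit linked through the 6 and 13 healthy arrays in them. With the difference between actin 3' and 5' signal as a covariate, chosen after the data were seen, none of the 4 was called, at adjusted p values of 0.126 to 0.167.

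BDKRB1 rested on 1 of its 2 probe sets. The bright one, numbered 18486, carries the suffix that marks probes shared with other transcripts. The dim one, numbered 12150, stayed near 3.8 in every group, passed the filter in 0 of 81 arrays, was called in none of the 21 comparisons and had an r of 0.00 with the bright one. Its values at that level say nothing of the bright one, and signal from other transcripts on the shared probes was not tested.

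The other kinin genes were counted beside BDKRB1. Of 14 listed, 8 were tested and none was called in Auto.D36 or NoRx.F minus Healthy.Control (16.7% and 35.4% of all genes called). In these, 1 and 3 had an unadjusted p under 0.05 by limma, and their median differences were 0.07 and 0.20. Of the 8, 2 were called higher in Auto.D36 minus FR104.Siro.F (13.9% of all genes called) and 1 in Auto.D36 minus FR104.F (3.15%). Against Healthy.Control, 2 were called lower in FR104.Siro.F (10.1%), and 1 higher and 1 lower in Siro.F (14.6%). None was called in FR104.F (10.7%), Tac.Mtx.F (14.1%), Tac.Mtx.D30 (3.46%) or Bela.Siro.D30 (7.17%). CPD, carboxypeptidase D, which can trim arginine from peptide ends, was higher in Auto.D36 than in FR104.F (1.66 ± 0.39, adjusted p = 0.00697) and FR104.Siro.F (1.96 ± 0.36, adjusted p = 8.46e-05). CPD was lower than in Healthy.Control in FR104.Siro.F (-1.23 ± 0.31, adjusted p = 0.00476) and Siro.F (-0.89 ± 0.27, adjusted p = 0.0159). MME, the kinin-degrading enzyme neprilysin, was 0.45 ± 0.13 higher in Auto.D36 than in FR104.Siro.F (adjusted p = 0.0134).

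The mean level of markers of natural killer cells, of which 4 of 5 were measured, moved in some of the same groups as BDKRB1. Their mean difference from Healthy.Control was -1.06 in FR104.F (-2.04 to -0.02 over arrays), -1.06 in FR104.Siro.F (-1.23 to -0.79), -0.66 in Siro.F, -0.29 in Bela.Siro.D30 and 0.11 in Auto.D36 (-0.31 to 0.64), with healthy arrays from -0.91 to 0.58. In NoRx.F it was -1.10 (-1.73 to -0.02), where BDKRB1 lay within the healthy range. Of the 4 markers, 1 was called lower in FR104.F (10.7% of all genes called) and 1 in FR104.Siro.F (10.1%). In NoRx.F 2 were called lower (35.4%) and in Siro.F 0 (14.6%). In FR104.Siro.F KLRF1 (6.79 against 9.41 in Healthy.Control) and KLRD1 (9.54 against 11.21) were lower. NCAM1 (10.16 against 10.12) and NCR3 (9.95 against 9.92) were not. Markers of monocytes and other myeloid cells, 7 of 8 measured, stood on average 0.53 above Healthy.Control in Auto.D36 with 0 called. The mean was 1.76 in FR104.F, 1.48 in FR104.Siro.F and 2.20 in NoRx.F, with 2, 2 and 4 called higher. In FR104.Siro.F S100A8 (10.77 against 6.84 in Healthy.Control) and S100A9 (10.55 against 5.93) stood furthest above healthy. VCAN (7.32 against 5.74), FCN1 (6.31 against 5.42) and LYZ (7.76 against 7.66) rose less. CD14 (6.15 against 6.46) and CSF1R (4.95 against 5.36) were lower. The part of either list in the differences was not tested.

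**Figure D4:**
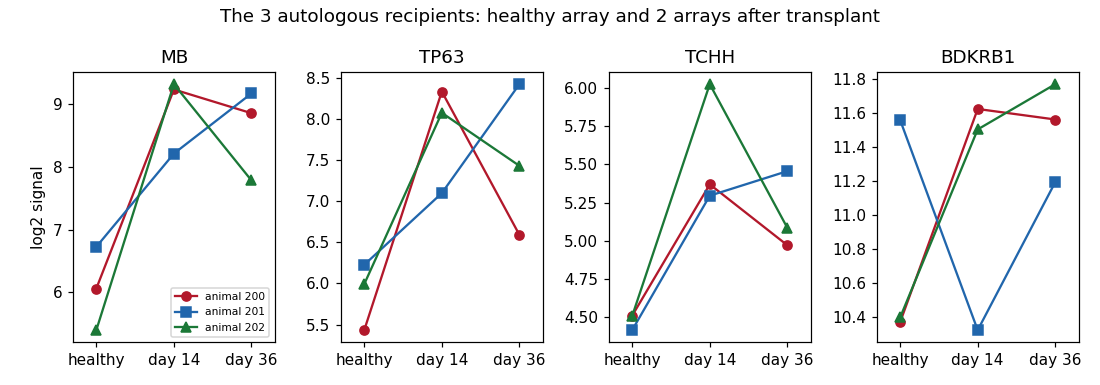
Log2 signal (vertical axes) in the 3 autologous recipients, from their own healthy array to day 14 and day 36 (horizontal axes), 1 line per animal. MB, TP63 and TCHH lie above the healthy array in all 3 animals at both times, and BDKRB1 lies below it in animal 201.

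In each autologous animal, MB, TP63 and TCHH were above the healthy array at both times, but their course differed by animal. In animal 201 MB read 6.72 in the healthy array, 8.21 at day 14 and 9.17 at day 36, and TP63 read 6.23, 7.10 and 8.42. In animal 202 MB read 5.40, 9.31 and 7.78 and TCHH 4.51, 6.02 and 5.08, so the day 36 values were below those of day 14. In animal 200 TP63 read 5.43, 8.33 and 6.59. The 3 animals gave no common direction between day 14 and day 36 in MB, TP63 or TCHH.

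A signal of RNA quality differed in the same arrays. The actin signal at the 3' end minus that at the 5' end was -0.34 to -0.30 in Auto.D36, below the healthy range of 0.43 to 3.83, and 0.29 to 2.26 in Auto.D14. It also lay below that range in all 3 FR104.F arrays (0.095 to 0.425), all 3 FR104.D14 arrays (0.017 to 0.373), 3 of 4 FR104.Siro.D14 arrays and 2 of 4 FR104.Siro.F arrays. With that difference as a covariate, chosen after the data were seen, Auto.D36 minus Healthy.Control was 2.24 for MB (adjusted p = 0.00299), 1.61 for TP63 (adjusted p = 0.0271) and 0.98 for TCHH (adjusted p = 0.0331), all 3 still called. FR104.F minus Healthy.Control was then 1.14 for MB (adjusted p = 0.132, no longer called) and -2.10 for BDKRB1 (adjusted p = 0.00357). No array of Auto.D36 or FR104.F lay inside the healthy range of the actin difference, so this fit cannot separate either group from it. The spike-in signal of Auto.D36 was 10.92 to 11.11. T cell identity could be checked on only 2 of 7 listed markers, CD5 and CD28, since no probe set here is named for a CD3 gene alone. CD5 read 10.30 in Auto.D36 and 10.79 in Healthy.Control, CD28 6.80 and 6.82. Of these 2, 1 was called lower than in Healthy.Control in Auto.D36 (16.7% of all genes called), NoRx.F (35.4%) and FR104.Siro.F (10.1%). Their mean difference from healthy was -0.26 in Auto.D36 (-0.70 to 0.10 over arrays), with healthy arrays from -0.65 to 0.52.

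Pearson's r between TP63 and TCHH was 0.84 over the 47 transplant arrays and 0.93 over the 16 group means. Both sets hold the day 14 arrays whose values chose the genes, which in part fixes a positive r. Over the 31 later transplant arrays r was 0.80, and over the 34 healthy arrays 0.18. Between the other pairs r over the 31 later arrays ran from 0.40 (TP63 and BDKRB1) to 0.67 (MB and BDKRB1). These values are a description: arrays share groups, animals and batches.

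**Figure D5:**
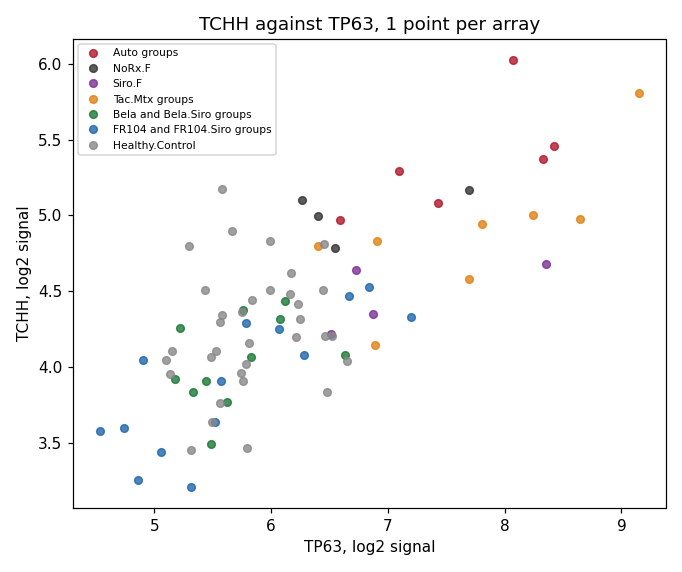
TCHH against TP63 log2 signal, 1 point per array, coloured by prophylaxis, with FR104 and FR104.Siro in the same colour, and likewise Bela and Bela.Siro. Pearson's r is 0.74 over all 81 arrays. Autologous and most Tac.Mtx arrays lie toward the upper right, though Tac.Mtx.D14 animal 19 read 4.15 in TCHH. FR104.Siro.D14 arrays lie at the lower left, at 4.53 to 5.06 in TP63, while FR104.Siro.F arrays spread from 4.74 to 7.20. The healthy arrays show little relation.

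Over the 81 arrays the genes with the highest Pearson's r with MB were IL12RB1, a chain of the interleukin 12 receptor (0.70), VCF2 (0.68), CCDC28B (0.68), RNF7 (0.68) and SLC41A3 (0.67). Those most like TP63 were PAQR4 (0.73), the exonuclease EXO1 (0.69), the heparan sulfate proteoglycan SDC4 (0.69), the fucosyltransferase FUT8 (0.68) and PDZD11 (0.66). TCHH was most like AKIRIN2 (0.67), SMIM29 (0.66), PAQR4 (0.64), the small GTPase RHOG (0.64) and TPRG1 (0.63), the annotated neighbour of TP63. BDKRB1 was most like the adaptor GAB3 (0.79), SAMD3 (0.78), CPD (0.78), PRR5L (0.77) and the prostaglandin D2 receptor PTGDR (0.76). PAQR4 was in the lists of both TP63 and TCHH. The 81 arrays hold the day 14 arrays whose values chose the genes, so these r values are a description. Over the 16 group means, PAQR4 ranked 4 with TP63, but FUT8, PDZD11 and EXO1 ranked 159, 201 and 259. TPRG1 ranked 197 with TCHH, while AKIRIN2 ranked 4.

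Genes of T cell activation and division were counted beside the 4 genes. Of 11 tested, 7 were called higher in Auto.D36 minus Healthy.Control (16.7% of all genes called in either direction), 11 in NoRx.F (35.4%) and 9 in Siro.F (14.6%). In Tac.Mtx.D30 6 were called higher (3.46%), in Tac.Mtx.F 7 (14.1%) and in Bela.Siro.D30 1 (7.17%). In FR104.F 7 were called higher (10.7%) and in FR104.Siro.F 5 (10.1%), with 1 called lower in the last. The proliferation marker MKI67 rose by 1.84 ± 0.37 in Auto.D36 (adjusted p = 0.000325) and by 3.41 ± 0.31 in NoRx.F (adjusted p = 5.68e-14), while in FR104.Siro.F, where MB, TP63 and TCHH were not called, it rose by 1.00 ± 0.34 (adjusted p = 0.0464). The inhibitory receptor LAG3 rose by 2.26 ± 0.37 in Auto.D36 and 3.82 ± 0.31 in NoRx.F. In Auto.D36 minus FR104.F none of the 11 was called, with 1 at an unadjusted p under 0.05 by limma, and their median was -0.25. The part of activation and division in the differences of the 4 genes was not tested.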

How the data were processed

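T cells of rhesus macaques sorted on CD3 were measured on 81 Affymetrix arrays from 50 animals. Deposited values were on the log2 scale, 1 per probe set and array, made by the authors with RMA in affy per the submitters' processing notes, with no version, build or batch method given in the sources used here. Values ran from 1.52 to 16.67 and array medians from 5.12 to 5.31. Among healthy controls, 61% of probe sets gave an F test p above 0.95 between batches, where 5% would be expected. Batches thus differ less than chance gives, and if the values were adjusted for batch before deposit, which no source used here states, spreads are understated.

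GEO's gene table named 25330 probe sets, 361 of them with several genes, which were left out. A gene's brightest probe set on average stood for it (14132 genes), and the 11806 above the 40th percentile (4.65) in at least 2 arrays were tested. In R 4.3.3, limma 3.58.1 with statmod 1.5.0 fitted the 81 arrays in 1 model of group plus batch, with 62 degrees of freedom left for the spread and eBayes with a trend; p-values are 2-sided, adjusted by Benjamini-Hochberg within each of 21 comparisons. The test was checked on simulated data. Arrays of a group came from different animals, and groups of 2 to 4 arrays limit the precision.

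The members and gene lists were chosen with earlier results of these data known. Other genes were named by rule: the 5 with the highest r with a member, and up to 4 per list with the smallest adjusted p in Auto.D36 or NoRx.F minus Healthy.Control. The lists covered the kinin system, p53 targets, the p63 programme, hair follicle genes, striated muscle, other globins, the hypoxia response, T cell activation and division, and markers of other cells.

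Same-numbered arrays come from the same animal, as the labels state. After group means were removed, the correlation between the Auto.D36 array and the animal's own healthy array was 0.253 to 0.337 over 3 pairs; in Siro.F it was -0.195 to -0.094 over 3 pairs. Alternatives were the animal as a block, random (correlation 0.194) or, for Auto.D36, fixed, no batch term, no filter, the mean of probe sets, every probe set, renewed quantile normalization, only the groups compared, single batches and each transplant array left out; RNA quality and spike-in covariates were chosen after seeing the data. Sequences were not used here.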

Additional observations from a re-analysis of the deposited data

Results flagged for a closer look

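BDKRB1 in FR104.Siro.F animal 29 read 8.86, apart from the other 3 arrays of that group at 7.74 to 7.92 by Dixon's criterion. Its spike-in signal was 12.41, above the healthy maximum of 11.82. It was 1 array in 16 examined sets of 4 arrays of 1 gene and group, a criterion that chance meets about once in every 20 sets.

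In 14 cases a gene differed between transplant groups by the test of that difference. Auto.D36 minus FR104.Siro.F was 3.10 for MB, 1.67 for TP63, 1.21 for TCHH and 3.43 for BDKRB1. Auto.D36 minus FR104.F was 2.98 for BDKRB1. Auto.D36 minus Bela.Siro.D30 was 2.61 for MB, 1.87 for TP63, 1.14 for TCHH and 2.29 for BDKRB1, between groups in different batches. FR104.Siro.F minus NoRx.F was -2.14 for MB, -1.05 for TCHH and -2.78 for BDKRB1, and FR104.F minus NoRx.F was -2.33 for BDKRB1, also between groups in different batches. Siro.F minus NoRx.F was -1.50 for BDKRB1.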

How the results depend on the processing

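Of 84 differences of the 4 genes, 29 were called, of which 10 were called under every alternative tried and 19 lost the call under at least 1. Of the 55 not called, 45 were called under no alternative. Of the other 10, 8 were called with only the compared groups in the fit and no other way: TCHH in Auto.D36 minus FR104.F, MB in Tac.Mtx.F minus Healthy.Control, BDKRB1 in NoRx.F minus Auto.D36, BDKRB1 and TCHH in Bela.F and Bela.Siro.F minus NoRx.F, and TCHH in FR104.F minus NoRx.F. MB in Siro.F minus NoRx.F was called so too (-1.41), within batch 1 (-1.04) and without NoRx.F animal 51 (-1.48) or Siro.F animal 13 (-1.45), and MB in Bela.Siro.F minus NoRx.F without a batch term (-1.55) or Bela.Siro.F animal 38 (-2.60). A sign changed 21 times, each time for a difference that was not called. The cause was not tested for any change, and the covariates were chosen after seeing the data. An array left alone in its group is assumed to vary like the other groups.

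With only the compared groups in the fit, the calls of Auto.D36 minus Bela.Siro.D30 for BDKRB1 (2.29) and TP63 (1.87) and of Auto.D36 minus FR104.Siro.F for TP63 (1.67) were lost, at adjusted p of 0.0542, 0.0636 and 0.0952, and TCHH in Auto.D36 minus FR104.F (0.88) was called. With the actin covariate Auto.D36 minus Bela.Siro.D30 became 2.16 for BDKRB1, 1.97 for MB, 1.21 for TCHH and 1.80 for TP63, and MB in FR104.F minus Healthy.Control 1.14, none called. With the spike-in covariate TP63 in Auto.D36 minus FR104.Siro.F was 1.21 (adjusted p = 0.106) and in FR104.Siro.F minus Healthy.Control 0.22. With probe sets averaged per gene, the lost calls were BDKRB1 in Bela.Siro.D30 minus Healthy.Control (-0.58) and TP63 in Auto.D36 minus Bela.Siro.D30 (0.37) and NoRx.F minus Healthy.Control (0.20). TP63 minus Healthy.Control then changed sign in Bela.Siro.D30 (0.082), Bela.Siro.F (-0.013) and FR104.Siro.F (0.071). Within single batches BDKRB1 was not called in Bela.Siro.D30 minus Healthy.Control (batch 3, -1.35), Siro.F minus Healthy.Control (batch 1, -0.87; batch 2, -1.49) or Siro.F minus NoRx.F (batch 2, -2.02). Nor were TCHH in NoRx.F minus Healthy.Control (batch 2, 0.91) or TP63 in NoRx.F (0.19) and Siro.F (0.40) minus Healthy.Control in batch 1. TP63 in Siro.F minus NoRx.F was -0.083 in batch 2.

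With each array left out in turn, calls were lost in these ranges. BDKRB1 ran from 1.90 to 2.88 in Auto.D36 minus Bela.Siro.D30, -1.93 to -0.96 in Bela.Siro.D30 minus Healthy.Control, -2.59 to -1.58 in FR104.F minus Healthy.Control, -2.89 to -1.88 in FR104.F minus NoRx.F, -1.30 to -0.98 in Siro.F minus Healthy.Control and -1.63 to -1.31 in Siro.F minus NoRx.F. MB ran from 1.18 to 1.99 in FR104.F minus Healthy.Control. TCHH ran from 1.00 to 1.32 in Auto.D36 minus Bela.Siro.D30, 0.79 to 1.03 in Auto.D36 minus Healthy.Control, -1.17 to -0.92 in FR104.Siro.F minus NoRx.F and 0.71 to 1.57 in Tac.Mtx.D30 minus Healthy.Control. TP63 ran from 1.40 to 2.31 in Auto.D36 minus Bela.Siro.D30, 1.20 to 2.13 in Auto.D36 minus FR104.Siro.F, 1.19 to 2.10 in Auto.D36 minus Healthy.Control, 0.43 to 1.03 in NoRx.F minus Healthy.Control, 0.80 to 1.46 in Siro.F minus Healthy.Control and 1.99 to 3.33 in Tac.Mtx.D30 minus Healthy.Control.

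Differences that were not called and changed sign without 1 array were, minus Healthy.Control, BDKRB1 in Tac.Mtx.D30 (-0.80 to 0.98) and Tac.Mtx.F (-1.06 to 0.21), MB in Bela.Siro.D30 (-0.27 to 0.47) and Bela.Siro.F (-0.82 to 1.30), TCHH in Bela.F (-0.071 to 0.11), Bela.Siro.F (-0.17 to 0.079) and FR104.F (-0.077 to 0.15), and TP63 in Bela.F (-0.14 to 0.56) and FR104.Siro.F (-0.47 to 0.35). Minus NoRx.F they were MB (-0.60 to 0.21) and TP63 (-0.53 to 0.15) in FR104.F and TP63 in Siro.F (-0.013 to 0.80). In Auto.D36 minus Tac.Mtx.D30 they were BDKRB1 (-0.036 to 1.75) and TCHH (-0.64 to 0.22).

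With the animal as a random replicate block no call of the 4 genes changed, and Auto.D36 minus Healthy.Control was 2.64 for MB, 1.67 for TP63, 0.90 for TCHH and 0.88 for BDKRB1. With the animal as a fixed block and the recipients' own healthy arrays it was 2.54, 1.60, 0.69 and 0.73, and MB, TP63 and TCHH were called (adjusted p of 0.00101, 0.008 and 0.0308).

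Counts of all genes called moved more. Auto.D36 minus Healthy.Control called 1976 genes (646 to 3634 over the alternatives, the highest counting every probe set), minus FR104.F 372 (66 to 581), minus FR104.Siro.F 1643 (773 to 2794), minus Bela.Siro.D30 1114 (53 to 2540) and minus Tac.Mtx.D30 7 (0 to 167; 30 with the random block). NoRx.F minus Healthy.Control called 4181 (815 to 6586), and minus Auto.D36 991 (556 to 2355). The other comparisons with Healthy.Control called 1725 in Siro.F (292 to 2526), 408 in Tac.Mtx.D30 (15 to 724), 1665 in Tac.Mtx.F (398 to 2286), 2082 in Bela.F (818 to 2882), 847 in Bela.Siro.D30 (234 to 1484), 335 in Bela.Siro.F (35 to 594), 1259 in FR104.F (246 to 2237) and 1187 in FR104.Siro.F (666 to 2342). Minus NoRx.F the counts were 1425 in Siro.F (4 to 1911), 820 in Tac.Mtx.F (432 to 1793), 220 in Bela.F (85 to 711), 915 in Bela.Siro.F (316 to 1629), 906 in FR104.F (294 to 2181) and 2319 in FR104.Siro.F (1862 to 3749).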
